A study of Mus musculus with 21 samples.

Results

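The mouse collagen genes are described here, taken as every gene whose symbol has the form Col, a number, the letter a and a chain number. The rule found 42 genes among the 28541 gene models counted in each table, each with 1 gene model. Of these 42, 34 passed the filter on low counts in brown adipose tissue, 37 in white vastus and 38 in the fit over both tissues. The libraries hold RNA of whole tissue from BATI4KO mice, in which the floxed gene for the transcription factor Irf4 is deleted in brown fat, and from littermates that carry the floxed alleles without that deletion. From what is known of the study, the deletion is driven by Cre recombinase under the promoter of Ucp1, a gene of brown and beige adipocytes, so that fibroblasts, endothelial cells and muscle fibres are not its target. Brown adipose tissue (BAT), the heat-producing fat, gave 6 BATI4KO and 5 floxed libraries, and white vastus (WV), the pale part of a thigh muscle, gave 5 BATI4KO and 5 floxed libraries. The labels used here name no strain, sex or age.

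Collagens are extracellular matrix proteins built of chains that wind into a triple helix, and each chain is the product of its own gene. Fibrillar collagens form the banded fibres of connective tissue, type IV collagens form the sheet of the basement membrane around vessels, adipocytes and muscle fibres, and type VI collagen forms beaded filaments next to it. FACIT collagens sit on fibrils, and smaller classes span the membrane or carry a fragment that is cut off. In fat and in muscle, fibroblasts make most of the fibrillar and type VI chains, while endothelial cells, adipocytes and muscle fibres contribute to the basement membrane.

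Total counts lay between 20219479 and 41773148 per BAT library and between 30479508 and 40328627 per WV library, and collagen genes took 0.194 to 0.364% of them in BAT and 0.121 to 0.248% in WV. Irf4, the targeted gene, stood at 5.36 ± 0.40 counts-per-million units (CPM) in BATI4KO BAT and 29.2 ± 12.3 CPM in floxed BAT (SD, n = 6 and 5). In WV it was 3.73 ± 0.45 CPM in BATI4KO mice and 5.10 ± 1.22 CPM in floxed mice (SD, n = 5 each). As a check of the tissues, Ucp1 stood at 1016 to 3349 CPM in BATI4KO BAT and 1605 to 5692 CPM in floxed BAT, and at no more than 0.412 CPM in WV. Contractile muscle markers (20 of 20 found in the tables, none at 0 throughout a group) summed to 638 to 18730 CPM in BATI4KO BAT and 158 to 1217 CPM in floxed BAT, with the BATI4KO library KO_3 highest, and to 299867 to 677926 CPM in WV. The medians of these sums were 2271 CPM in BATI4KO and 529 CPM in floxed BAT, so the difference was not in KO_3 alone. Titles of BAT libraries end either in a short number (1, 2 or 3), as KO_3 does, or in a longer tag, as in KO_5492, while all WV titles end in a tag, so the style of title was kept as a term in every fit that held BAT. Rmrp and Rpph1, short RNAs of RNA-processing enzymes, moved with the style, at 221 to 967 and 436 to 1556 CPM in the 6 short-number libraries and at 8.78 to 23.8 and 14.5 to 43.1 CPM in the 5 BAT libraries with tags. In WV the 5 BATI4KO libraries had 16.4 to 21.6 CPM of Rmrp and 18.7 to 32.6 CPM of Rpph1. The floxed WV libraries FX_5497, FX_5503 and FX_5514 stood apart, at 143 to 187 CPM of Rmrp and 368 to 414 CPM of Rpph1, and the other 2 floxed ones had 20.9 to 30.9 and 29.7 to 35.7 CPM. What these RNAs stand for in the libraries is not in the labels, so each WV comparison is also given without those 3 libraries, which leaves 2 floxed ones. Nothing in the labels says what the 2 styles stand for, or that replicates are separate animals, and each p-value reflects how far these libraries differ among themselves.

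Levels are given as RPKM, that is, CPM divided by the length of the gene model in kilobases, with library sizes scaled by the trimmed mean of M values (TMM) over all 21 libraries. In BAT the basement membrane chains Col4a1 and Col4a2 and the fibrillar chains Col3a1 and Col1a1 stood at the top. Col4a1 ran from 53.2 through a median of 63.3 to 83.4 RPKM in BATI4KO BAT, and was 47.8, 48.7, 55.5, 76.9 and 110 RPKM in floxed BAT. Col3a1, the chain of reticular fibres, ran from 35.1 through a median of 59.4 to 62.4 RPKM in BATI4KO BAT, and was 45.2, 25.4, 73.7, 50.8 and 60.8 RPKM in floxed BAT. The ranges of these 2 genes overlapped in both genotypes, and within a library Col4a1 stood above Col3a1 in 5 of 6 BATI4KO and 4 of 5 floxed BAT libraries. In WV the order was clearer, with Col3a1 at 93.4, 72.0, 104, 80.2 and 115 RPKM in BATI4KO mice and 58.1, 104, 79.0, 93.2 and 136 RPKM in floxed mice. There Col4a1 was at 43.5, 42.5, 46.2, 52.2 and 57.4 RPKM in BATI4KO mice and 28.8, 35.2, 42.2, 42.9 and 61.0 RPKM in floxed mice, so that every BATI4KO library had more Col3a1 than any had Col4a1, while the 2 ranges met in floxed mice.

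**Figure D1:**
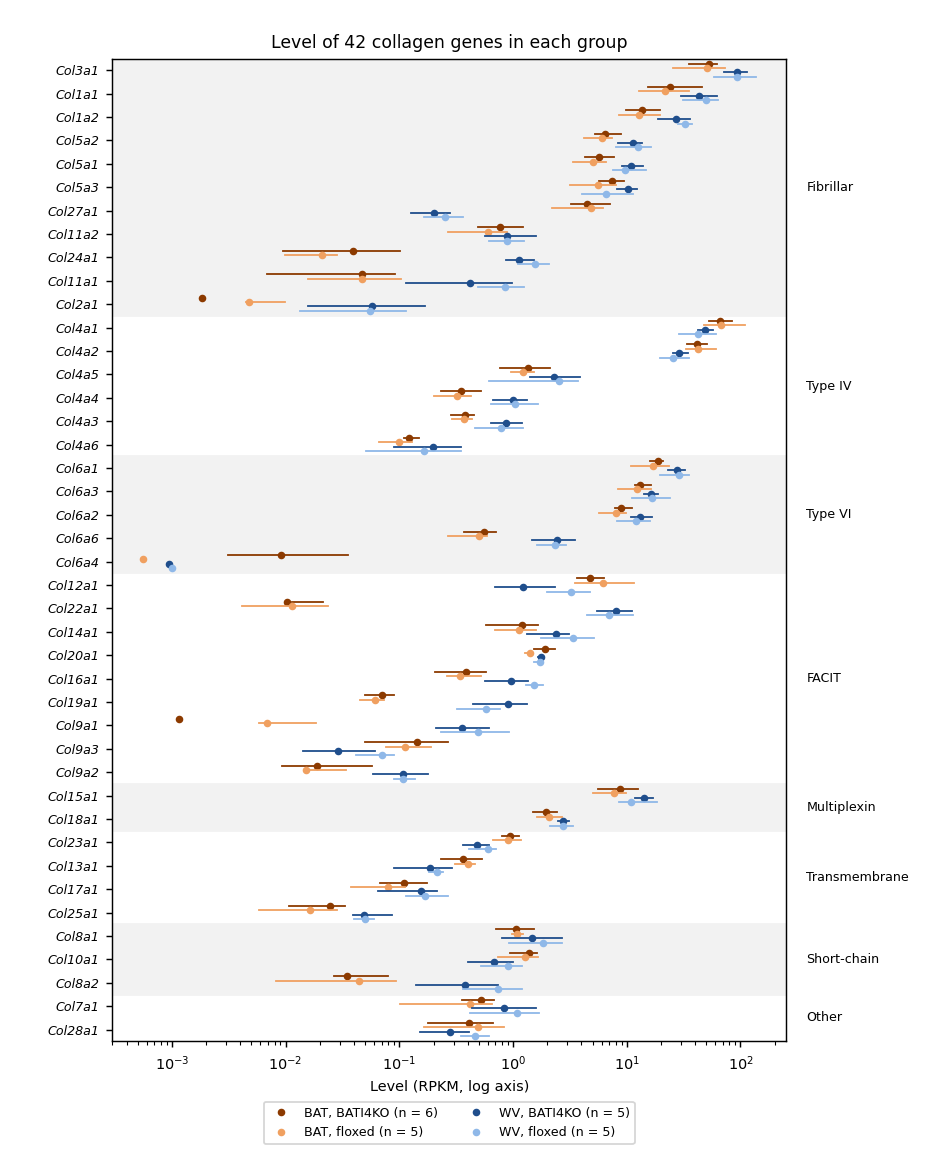
Mean level of each of the 42 collagen genes in RPKM (log axis), by class, in BATI4KO and floxed BAT (dark and light brown, n = 6 and 5) and in BATI4KO and floxed WV (dark and light blue, n = 5 each). Points are means over all libraries and lines run from the lowest library above 0 to the highest. Most genes lie within one order of magnitude in the 4 groups, while Col27a1 lies far to the right in BAT and Col22a1, Col24a1 and Col9a1 far to the right in WV.

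By class, fibrillar and type IV chains took nearly equal parts of the summed collagen RPKM in BAT, and on average fibrillar chains took over 2 times as much as type IV chains in WV. Type IV chains held 37.6 ± 3.7% in BATI4KO BAT, 39.6 ± 7.4% in floxed BAT, 21.8 ± 2.7% in BATI4KO WV and 18.9 ± 1.7% in floxed WV (SD, n = 6, 5, 5 and 5). Every BAT library, from 29.5 to 47.6%, was above every WV library, from 16.5 to 25.3%. Fibrillar chains held 39.6 ± 2.9%, 38.3 ± 7.2%, 52.5 ± 3.7% and 55.1 ± 1.1% in the same order of groups. Type VI chains differed little, at 14.4 ± 1.2%, 13.5 ± 0.52%, 15.7 ± 1.2% and 15.9 ± 1.5%. Summed over all 42 genes the level was 289 ± 42, 282 ± 63, 377 ± 54 and 378 ± 85 RPKM in that order, with no test made of this sum, and library totals in place of TMM turned the order of the tissues round.

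**Figure D2:**
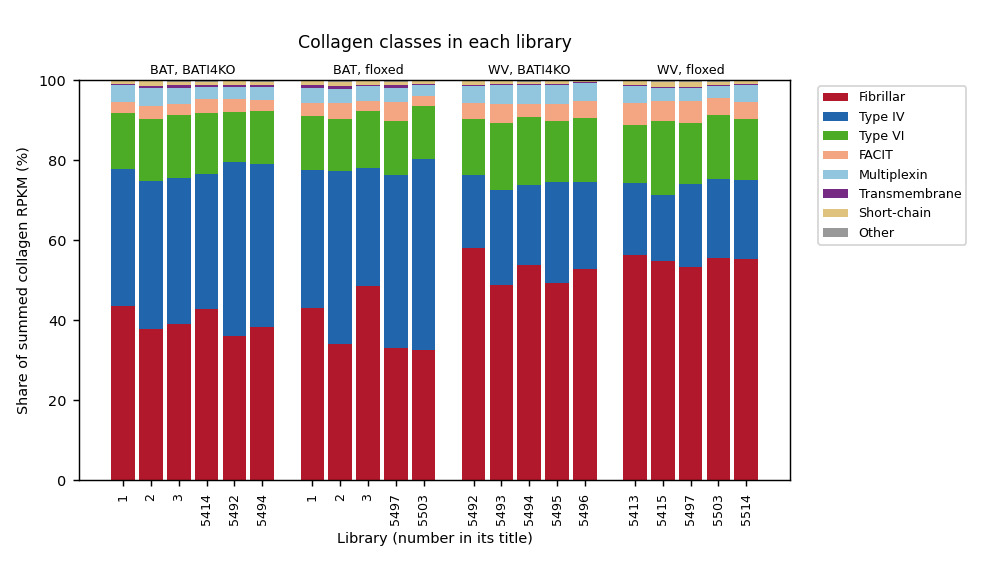
Share of the summed collagen RPKM taken by each of the 8 classes (%), 1 bar per library, labelled with the number in its title, in BATI4KO and floxed BAT and BATI4KO and floxed WV. The blue type IV band is wider in each of the 11 BAT bars (29.5 to 47.6%) than in any of the 10 WV bars (16.5 to 25.3%).

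The tissues were compared within each genotype with edgeR's quasi-likelihood test over all 21 libraries, with Benjamini-Hochberg adjusted p-values over 16632 genes and a threshold of 0.05. As short numbers occur in BAT alone, each log2 change of BAT over WV refers to libraries with tags and need not equal the ratio of the group means. In floxed mice 6 of 38 collagen genes were higher in BAT and 22 lower, where 34.1% of all genes tested were higher and 31.7% lower. In BATI4KO mice 8 were higher and 19 lower, where 37.4% of all genes were higher and 33.1% lower. Without the 3 WV libraries of high Rmrp, floxed mice gave 4 higher and 17 lower of 40 tested (26.7% and 28% of all genes), with Col12a1 and Col23a1 no longer among the higher genes and Col3a1, Col6a1, Col6a2, Col7a1, Col15a1 and Col20a1 no longer among the lower ones. The same direction passed in both genotypes for 6 genes that were higher and 18 that were lower in BAT. The median log2 change was -0.77 over the collagen genes and 0.11 over all genes in floxed mice, and -0.65 and 0.14 in BATI4KO mice. The libraries of the 2 tissues did not overlap for 2 genes higher in BAT and 16 lower in floxed mice (26.3% and 25.7% of all genes), and for 3 and 13 in BATI4KO mice (28.8% and 27.6%). In whole tissue, fewer cells of a type and less RNA per cell cannot be told apart.

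**Figure D3:**
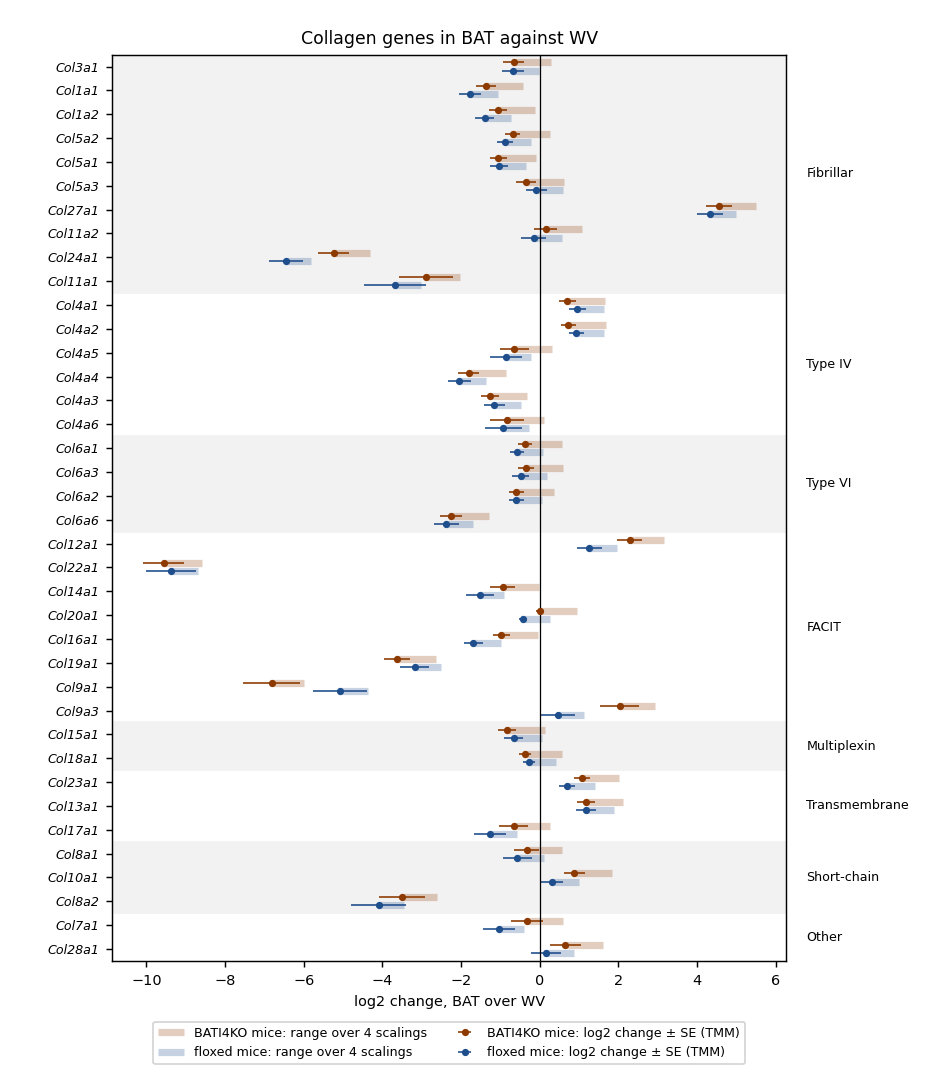
Log2 change of BAT over WV for the 38 collagen genes tested, by class, in BATI4KO mice (brown, upper) and floxed mice (blue, lower); points and lines are the estimate and SE after TMM scaling and pale bars are the range of the estimate over 4 scalings. Col27a1 lies near +4 in both genotypes and Col22a1 near -9. Bars of genes with small changes reach across 0, among them Col6a1 in both genotypes and Col3a1 in BATI4KO mice. The Col9a1 point for BATI4KO mice rests on 1 count in BAT.

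Of the 10 fibrillar genes tested, the same 7 were lower in BAT in both genotypes (Col1a1, Col1a2, Col3a1, Col5a1, Col5a2, Col11a1 and Col24a1), and 1, Col27a1, was higher. Col1a1 and Col1a2 encode the chains of type I collagen, the main protein of tendon, skin and bone. Col1a1 was 26.9, 16.2, 35.2, 12.7 and 16.3 RPKM in floxed BAT and 47.3, 31.1, 53.7, 51.2 and 63.4 RPKM in floxed WV. Only FX_3 of floxed BAT reached into the WV range, and the log2 change was -1.78 (SE 0.28, adjusted p = 1.03e-05). In BATI4KO mice Col1a1 ran from 15.2 through 20.7 to 45.6 RPKM in BAT and was 62.2, 30.2, 40.4, 36.5 and 48.2 RPKM in WV, a log2 change of -1.36 (SE 0.26, adjusted p = 7.67e-05). KO_1 of BATI4KO BAT was the only one of its group inside the WV range. Col1a2 was 11.6, 8.47, 19.7, 10.8 and 13.6 RPKM in floxed BAT and 28.4, 33.4, 29.4, 34.6 and 37.3 RPKM in floxed WV, without overlap (log2 change -1.40, SE 0.25, adjusted p = 4.52e-05). In BATI4KO mice it ran from 9.85 through 12.7 to 19.5 RPKM in BAT and was 35.9, 18.7, 28.3, 22.5 and 30.7 RPKM in WV, where KO_1 of BAT reached the lowest WV library (log2 change -1.06, SE 0.23, adjusted p = 0.000326). Col3a1 was lower by less, at -0.68 in floxed mice (SE 0.29, adjusted p = 0.0424) and -0.67 in BATI4KO mice (SE 0.26, adjusted p = 0.0284), with the groups overlapping in floxed mice. Of the 21 fits that left out 1 library, 9 lost the call in floxed mice (log2 change -0.82 to -0.51 over all 21) and 4 lost it in BATI4KO mice (-0.75 to -0.57). With library totals the Col3a1 log2 change was -0.02 in floxed mice and turned to 0.28 in BATI4KO mice, and without the 3 WV libraries of high Rmrp it was -0.47 in floxed mice (adjusted p = 0.261). The type V chains, which start and thin type I fibrils, split. Col5a1 and Col5a2 were lower in BAT in floxed mice, with log2 changes of -1.04 and -0.88 (edgeR adjusted p = 0.000334 and 0.000841), while Col5a3 had -0.09 with an adjusted p of 0.786.

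Col24a1 and Col27a1, which form a branch of the fibrillar family of their own, lay at opposite ends of that class in the comparison. Col27a1, a cartilage collagen by its known role, was 4.42, 5.43, 2.21, 6.09 and 6.18 RPKM in floxed BAT and 0.165, 0.362, 0.177, 0.333 and 0.227 RPKM in floxed WV. BATI4KO BAT ran from 3.24 through 4.20 to 7.10 RPKM, and BATI4KO WV held 0.145, 0.193, 0.280, 0.127 and 0.267 RPKM. The lowest BAT library stood well above the highest WV library in both genotypes, and the log2 change was 4.33 in floxed mice (SE 0.33, adjusted p = 2.34e-10) and 4.55 in BATI4KO mice (SE 0.34, adjusted p = 1.06e-10). Col24a1, known from bone and other collagen I-rich tissue, was 0.0224, 0.0264, 0.00991, 0.0174 and 0.0286 RPKM in floxed BAT and 1.10, 2.08, 1.60, 1.53 and 1.47 RPKM in floxed WV. In BATI4KO mice it ran from 0.00956 through 0.0313 to 0.101 RPKM in BAT and was 1.02, 1.135, 1.54, 1.12 and 0.864 RPKM in WV. Its counts were 2 to 22 per BAT library and 129 to 440 per WV library, and its log2 change was -6.45 in floxed mice (SE 0.43, adjusted p = 2.83e-11) and -5.24 in BATI4KO mice (SE 0.39, adjusted p = 1.24e-10). The highest BAT value, 0.101 RPKM, came from the BATI4KO library KO_3, the library with the most muscle marker RNA, and the part of that RNA in the value was not tested. Col11a1, a partner of type V and type II chains, was 0.0156, 0.0809, 0.0194, 0.017 and 0.104 RPKM in floxed BAT and 1.25, 0.876, 0.899, 0.496 and 0.719 RPKM in floxed WV. BATI4KO BAT ran from 0 through 0.0462 to 0.0921 RPKM, and BATI4KO WV held 0.972, 0.114, 0.374, 0.356 and 0.288 RPKM. Col11a1 was lower in every BAT library of either genotype than in any WV library of the same genotype, with a log2 change of -3.68 in floxed mice (SE 0.78, adjusted p = 0.0003) and -2.88 in BATI4KO mice (SE 0.69, adjusted p = 0.000874).

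Because Col27a1 and Col24a1 had the highest and lowest log2 change of the fibrillar class in both genotypes, the 250 bases before their annotated starts are shown. They were read from RefSeq on build GRCm38.p6. The Col27a1 stretch is chr4:63215162-63215411 on the plus strand and the Col24a1 stretch is chr3:145292222-145292471 on the plus strand. Capitals mark matches to the motifs searched on both strands, which were CAGCTG (an E-box of the kind muscle regulators bind), GGGCGG (a GC box), CCAAT (the box of that name), TATAAA (the core of a promoter box) and GAAA repeated after a gap of 2 bases (of the kind IRF proteins bind).
Col27a1: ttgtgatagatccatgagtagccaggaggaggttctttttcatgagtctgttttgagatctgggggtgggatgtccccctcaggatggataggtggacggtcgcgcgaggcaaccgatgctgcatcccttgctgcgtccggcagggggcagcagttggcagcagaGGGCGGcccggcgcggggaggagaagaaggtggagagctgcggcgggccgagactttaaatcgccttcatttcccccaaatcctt
Col24a1: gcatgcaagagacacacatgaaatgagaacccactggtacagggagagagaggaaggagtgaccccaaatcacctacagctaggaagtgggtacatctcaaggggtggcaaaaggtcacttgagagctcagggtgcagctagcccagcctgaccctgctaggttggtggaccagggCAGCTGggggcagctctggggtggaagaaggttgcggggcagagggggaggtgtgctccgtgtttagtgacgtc
The Col27a1 stretch holds 1 GGGCGG and the Col24a1 stretch 1 CAGCTG, and no other motif of the 5 was found in either. Of the 42 genes, 34 had an entry in the promoter table, whose windows run from 250 bases before to 50 bases after the start. CAGCTG was found for 6 of the 34 genes (17.6%) and in 16.3% of the 32851 windows of all genes, and GGGCGG for 21 (61.8%) against 35.7% of all windows. CCAAT was found for 13 (38.2% against 37.4%), TATAAA for 5 (14.7% against 13.6%) and the spaced GAAA repeat for 0 of 34 (3.44% of all windows). A match describes the letters of the window and is not evidence of binding.

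The 6 type IV genes parted by pair. Col4a1 and Col4a2, which together make the common basement membrane trimer, were higher in BAT. Col4a3 and Col4a4, which with Col4a5 make the trimer known from kidney and lung, were lower. Col4a5 and Col4a6 did not pass, with log2 changes of -0.86 (adjusted p = 0.0769) and -0.93 (adjusted p = 0.0898) in floxed mice. For Col4a1 the values given above overlapped between the tissues, and the log2 change was 0.95 in floxed mice (SE 0.21, adjusted p = 0.000496) and 0.71 in BATI4KO mice (SE 0.21, adjusted p = 0.00464). Col4a2 ran from 33.9 through 41.5 to 50.5 RPKM in BATI4KO BAT and was 25.3, 25.6, 26.2, 32.1 and 34.8 RPKM in BATI4KO WV. Floxed BAT had 34.0, 34.8, 33.1, 48.5 and 61.0 RPKM and floxed WV 19.6, 19.6, 26.9, 25.6 and 35.6 RPKM. One WV library of each genotype reached the low end of BAT, and the log2 change was 0.94 in floxed mice (SE 0.19, adjusted p = 0.000225) and 0.72 in BATI4KO mice (SE 0.19, adjusted p = 0.00166). Without the term for title style, Col4a1 missed the threshold in BATI4KO mice (log2 change 0.44, adjusted p = 0.0742). Col4a4 averaged 0.320 RPKM in floxed BAT and 1.05 RPKM in floxed WV (log2 change -2.04, edgeR adjusted p = 3.22e-06), and Col4a3 had a log2 change of -1.16 (edgeR adjusted p = 0.000605).

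Endothelial markers (10 of 10 found, none at 0 throughout a group) were, like Col4a1 and Col4a2, mostly higher in BAT, and were not alone in this. They summed to 523 to 772 CPM in BATI4KO BAT and 618 to 781 CPM in floxed BAT, and to 300 to 429 CPM in BATI4KO WV and 220 to 385 CPM in floxed WV, and 9 of the 10 were higher in BAT in each genotype. Of 12 brown adipocyte markers 11, and of 7 Schwann cell markers 5, were higher in BAT in each genotype, with none lower. Mural (vessel wall) cell markers had 2 of 10 higher and 1 lower in each genotype. Of all genes, 34.1% were higher in floxed and 37.4% in BATI4KO mice. The part of any of these cells in the levels of the 2 chains was not tested.

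Col4a1 and Col4a2 are neighbours that are transcribed away from each other, and their starts as RefSeq annotates them lie so close that the first 22 bases of each are the other strand of the same stretch, chr8:11312805-11312826 on GRCm38.p6. It is shown on each strand, with a GC box in capitals.
Col4a2: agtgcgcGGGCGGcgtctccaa
Col4a1: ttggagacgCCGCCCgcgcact
The 2 genes kept a narrow ratio across the study, with Col4a1 at 1.4 to 1.8 times the RPKM of Col4a2 over the 21 libraries. The kit used does not mark strand, so reads from this overlap cannot be assigned to a gene by direction. Other chains that share a trimer had wider ratios. Col6a1 stood at 1.82 to 2.56 times Col6a2 over all libraries, Col4a3 at 0.752 to 1.63 times Col4a4 in BAT and 0.720 to 0.985 times in WV, and Col5a1 at 0.599 to 1.26 times Col5a2 over all libraries. The ratio of the leading basement membrane chain to the leading type I chain, Col4a1 to Col1a1, separated the tissues, at 1.57 to 6.75 in BAT and 0.609 to 1.43 in WV.

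Other collagen genes that lie side by side on the RefSeq gene order also had estimates of one sign in both genotypes. On chromosome 1 these were Col9a1 and Col19a1, Col3a1 and Col5a2, and Col4a4 and Col4a3, and on chromosome 10 Col6a2 and Col6a1, all with negative estimates of BAT over WV under TMM scaling. Col4a6 and Col4a5 on chromosome X had the negative estimates given above, which did not pass. Each of these 5 pairs belongs to 1 class, and 29 of the 38 collagen genes tested had a negative estimate in floxed mice and 28 in BATI4KO mice.

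Among type VI genes the changes were small apart from that of Col6a6. Of 4 tested, 3 were lower in floxed mice (Col6a1, Col6a2 and Col6a6) and 2 in BATI4KO mice (Col6a2 and Col6a6). Col6a6, an alternative to Col6a3 in the trimer, averaged 0.498 RPKM in floxed BAT and 2.33 RPKM in floxed WV and had a log2 change of -2.38 (SE 0.31, adjusted p = 8.76e-07). Col6a1 was 14.4, 11, 17.6, 19.4 and 23.3 RPKM in floxed BAT and 19.5, 33.6, 28.1, 28.5 and 35.4 RPKM in floxed WV, with 1 BAT library inside the WV range (log2 change -0.58, SE 0.18, adjusted p = 0.00723). In BATI4KO mice it ran from 16 through 19.5 to 20.8 RPKM in BAT and was 25.7, 22.9, 31.3, 24.8 and 32.3 RPKM in WV, without overlap, its log2 change was -0.37 with an adjusted p of 0.06, and with library totals its log2 change turned to 0.074 in floxed mice and 0.58 in BATI4KO mice. Without the 3 WV libraries of high Rmrp, Col6a1 had -0.46 in floxed mice (adjusted p = 0.0849) and -0.40 in BATI4KO mice (adjusted p = 0.0443). Col15a1 and Col18a1, basement membrane collagens whose ends are cut to restin and endostatin, followed the same pattern in small steps. Col15a1 was lower in BAT in both genotypes (log2 change -0.66 and adjusted p = 0.0219 in floxed mice, -0.84 and 0.00337 in BATI4KO mice), and Col18a1 passed in BATI4KO mice (log2 change -0.38, adjusted p = 0.0327) and not in floxed mice (-0.27, adjusted p = 0.146). Over 4 scalings the Col15a1 log2 change ran from -0.69 to 0.05 in floxed mice and from -0.88 to 0.12 in BATI4KO mice. With library totals Col18a1 was called higher in BATI4KO BAT (log2 change 0.56, adjusted p = 0.0105), so that the direction of Col18a1 rests on the scaling.

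FACIT genes held the largest fall among the 38 genes tested, that of Col22a1, beside a rise. Of 8 tested, 6 were lower in BAT in floxed mice (Col22a1, Col9a1, Col19a1, Col16a1, Col14a1 and Col20a1) and 1, Col12a1, was higher, and in BATI4KO mice 5 were lower and 2 higher. Col22a1, a collagen of the junction between muscle and tendon, had 2, 3, 4, 1 and 3 counts in floxed BAT and 556, 800, 1415, 892 and 1470 counts in floxed WV. In BATI4KO mice it had 3, 0, 3, 6, 3 and 0 counts in BAT and 1205, 1357, 965, 1118 and 1417 counts in WV. The fitted log2 change was -9.37 in floxed mice (SE 0.63, adjusted p = 2.83e-11) and -9.56 in BATI4KO mice (SE 0.53, adjusted p = 1.1e-12), with sizes that rest on a few counts in BAT. The BATI4KO library KO_3, with 18730 CPM of muscle markers, held 3 of these counts. In the annotation Col22a1 overlaps Gm16308 on the other strand. Col9a1, a cartilage and eye collagen, had 0 counts in 5 of 6 BATI4KO BAT libraries and 1 in the other, and 0.210, 0.392, 0.239, 0.315 and 0.613 RPKM in BATI4KO WV. In floxed mice it had 0, 1, 0, 3 and 2 counts in BAT and 0.931, 0.359, 0.512, 0.431 and 0.231 RPKM in WV (log2 change -5.08, SE 0.69, adjusted p = 1.33e-06). Col19a1, known from muscle differentiation and from neurons, averaged 0.0618 RPKM in floxed BAT and 0.582 RPKM in floxed WV (log2 change -3.18, SE 0.37, adjusted p = 1.35e-07). Col12a1, which coats fibrils of tendon and muscle fascia, was 4.60, 5.27, 3.53, 11.6 and 6.04 RPKM in floxed BAT and 4.76, 4.23, 3.02, 2.13 and 2.01 RPKM in floxed WV. These ranges overlapped, and the log2 change was 1.26 (SE 0.32, adjusted p = 0.00172), or 0.77 without the 3 WV libraries of high Rmrp (adjusted p = 0.0974), which hold its 3 lowest floxed WV values. BATI4KO BAT ran from 3.68 through 4.39 to 6.31 RPKM, and BATI4KO WV held 2.34, 0.701, 1.21, 0.891 and 0.954 RPKM, without overlap (log2 change 2.28, SE 0.32, adjusted p = 1.96e-06).

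Among transmembrane genes, 2 of 3 tested rose in BAT in both genotypes, and Col17a1, of the anchors of skin, was lower in floxed mice (log2 change -1.25, edgeR adjusted p = 0.0103). Col13a1, an anchor at the neuromuscular junction, was 0.402, 0.379, 0.307, 0.463 and 0.443 RPKM in floxed BAT and 0.197, 0.181, 0.242, 0.233 and 0.215 RPKM in floxed WV, without overlap (log2 change 1.19, SE 0.25, adjusted p = 0.000323). In BATI4KO mice it ran from 0.235 through 0.342 to 0.529 RPKM in BAT and was 0.209, 0.132, 0.203, 0.0899 and 0.293 RPKM in WV, overlapping in the WV library KO_5496 (log2 change 1.18, SE 0.24, adjusted p = 0.000162). Col23a1 rose by 0.69 in floxed and 1.07 in BATI4KO mice (edgeR adjusted p = 0.00713 and 6.5e-05). Col8a2, a network chain of vessel walls and the cornea, was 0.0642, 0.0941, 0.0083, 0.0291 and 0.0239 RPKM in floxed BAT and 0.363, 1.20, 0.957, 0.634 and 0.527 RPKM in floxed WV, lower in every BAT library (log2 change -4.10, SE 0.69, adjusted p = 2.36e-05). BATI4KO BAT ran from 0 through 0.0330 to 0.0788 RPKM, and BATI4KO WV held 0.739, 0.140, 0.389, 0.351 and 0.291 RPKM, again without overlap (log2 change -3.50, SE 0.60, adjusted p = 2.24e-05). Its partner Col8a1 had a log2 change of -0.57 with an adjusted p of 0.178. Col10a1, the growth plate collagen, had a log2 change of 0.88 in BATI4KO mice (SE 0.27, adjusted p = 0.00613) and 0.31 in floxed mice (adjusted p = 0.337), and it overlaps Nt5dc1 on the opposite strand. Col7a1, the anchoring fibril of skin, was lower in floxed BAT (log2 change -1.04, adjusted p = 0.0338), and Col28a1, a collagen of peripheral nerve sheaths, passed in neither genotype. The 4 genes that were not tested had few counts. Col2a1, the main cartilage collagen, summed to 2 and 5 counts over the BATI4KO and floxed BAT libraries and to 42 and 34 over the BATI4KO and floxed WV libraries, and Col6a4 summed to 17, 1, 1 and 1, with 12 of the 17 in 1 BATI4KO library.

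Markers of connective tissue cells were also lower in BAT, those of fibroblasts less clearly in BATI4KO mice. Tendon and cartilage markers summed to 3.56 to 6.18 CPM in BAT and 31.3 to 249.4 CPM in WV, and fibroblast markers to 628 to 1082 CPM in BAT and 747 to 3185 CPM in WV. Of 9 tendon and cartilage markers, 7 were lower in BAT in each genotype. Of 12 fibroblast markers, 10 were lower in floxed and 5 in BATI4KO mice, where 31.7% and 33.1% of all genes were. In BATI4KO mice the fibroblast sums overlapped, at 628 to 1040 CPM in BAT and 747 to 1458 CPM in WV. The part of these cells in the collagen levels was not tested.

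The direction of the smaller tissue changes depended on how libraries were scaled. With library totals in place of TMM the median of all genes shifted by 0.68 in floxed and 0.95 in BATI4KO mice, and the collagen genes counted 9 higher and 11 lower in floxed and 15 higher and 8 lower in BATI4KO mice, where 57% and 68.3% of all genes were then higher. Under all 4 scalings and in both genotypes, 6 genes were higher in BAT (Col12a1, Col13a1, Col23a1, Col27a1, Col4a1 and Col4a2) and 8 were lower (Col11a1, Col19a1, Col22a1, Col24a1, Col4a4, Col6a6, Col8a2 and Col9a1). Col3a1 is not among them. In BATI4KO mice Col1a1 and Col1a2 lost the call with library totals alone, where their log2 changes stayed negative, at -0.43 and -0.13.

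**Figure D4:**
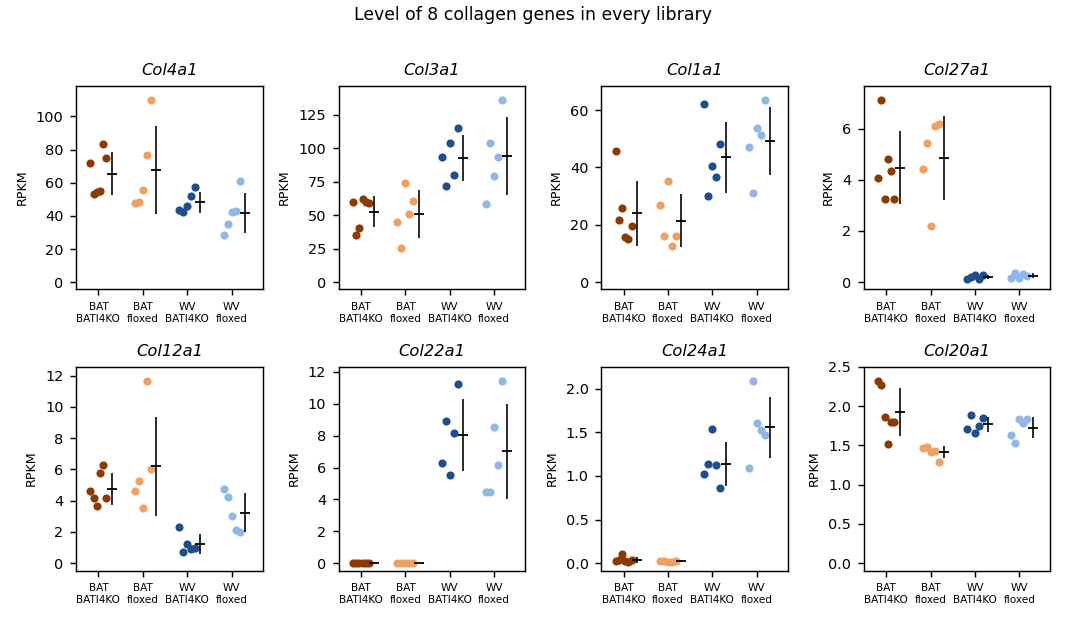
Level of 8 collagen genes in every library (points, RPKM, linear axes from 0), with the mean and SD beside each group, in BATI4KO and floxed BAT (n = 6 and 5) and BATI4KO and floxed WV (n = 5 each). Col27a1 is at 2.21 RPKM or above in all BAT libraries and at 0.362 or below in all WV libraries, and Col20a1 is the gene whose BATI4KO BAT libraries (1.52 to 2.32) all lie above the floxed ones (1.28 to 1.48).

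Loss of Irf4 in brown fat went with no collagen gene past the threshold in BAT. The test asks whether collagen messages differ in BAT that lacks the factor, and 0 of 34 genes passed with edgeR, where 0.0436% of the 16051 genes tested did. At an unadjusted p under 0.05, 1 was higher and 0 lower, against 7.5% and 7.24% of all genes. DESeq2 called 1 collagen gene among 374 genes in all, and limma voom called none. The gene was Col20a1, a FACIT collagen of little known function, with 2.32, 2.27, 1.87, 1.52, 1.80 and 1.79 RPKM in BATI4KO BAT and 1.46, 1.48, 1.41, 1.43 and 1.28 RPKM in floxed BAT. It was the 1 collagen gene whose groups did not overlap, where 0.586% of all genes were higher and 0.343% lower without overlap. Its log2 change was 0.46 (SE 0.10, edgeR adjusted p = 0.143), with 0.57 in short-number libraries (adjusted p = 0.656) and 0.34 in libraries with tags (adjusted p = 0.379). With a score of the contractile muscle markers as a term, it was 0.56 (edgeR adjusted p = 0.448). The adjusted p lay between 0.00843 and 0.656 over all alternatives, the lowest with DESeq2. On the reference annotation Col20a1 overlaps a gene on the same strand, BX649560.1, so its counts are uncertain.

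The abundant chains had estimates near 0 in BAT. The log2 changes were -0.01 for Col3a1 (SE 0.23), -0.05 for Col4a1 (SE 0.16), -0.04 for Col4a2 (SE 0.14) and 0.23 for Col1a1 (SE 0.22), and the genotypes overlapped for each of them. Col5a3 ran from 5.69 through 7.44 to 9.37 RPKM in BATI4KO BAT and was 6.05, 3.15, 5.48, 5.43 and 8.01 RPKM in floxed BAT, overlapping, with a log2 change of 0.38 (SE 0.18, edgeR adjusted p = 0.356). Col12a1 had a log2 change of -0.38 (SE 0.19, edgeR adjusted p = 0.371), with -0.11 in short-number libraries and -0.72 in libraries with tags. Its highest value, 11.6 RPKM, was in the floxed library FX_5497. Of the 34 genes, 24 had a positive estimate, against 48.8% of all genes, and the median was 0.07 over the collagen genes and -0.01 over all genes. Contractile muscle markers went with genotype in BAT, with 20 of 20 positive estimates and a median of 2.61. Of them, 19 had an unadjusted edgeR p under 0.05, against 7.5% of all genes, and none passed the adjusted threshold. Their part in the estimates of the abundant chains was not tested.

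**Figure D5:**
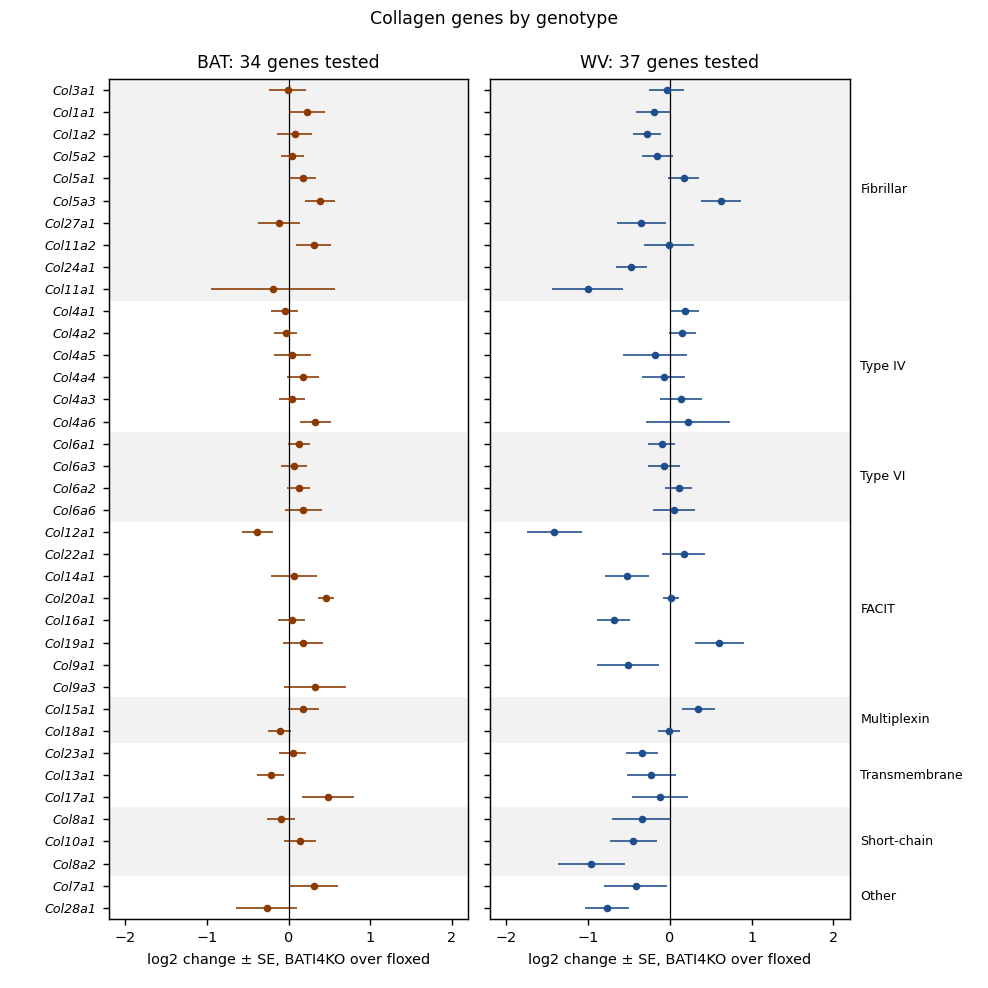
Log2 change of BATI4KO over floxed with its SE for the collagen genes tested in BAT (left, 34 genes, brown) and WV (right, 37 genes, blue), by class. No gene passed an adjusted p of 0.05 with edgeR in either tissue. Col20a1 stands at 0.46 in BAT with a short line, and Col12a1 at -1.41 in WV.

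In muscle of the same genotypes, 0 of 37 collagen genes passed with edgeR, where 0.00688% of 14529 genes did. At an unadjusted p under 0.05, 1 was higher and 6 were lower, against 3.23% and 5.68% of all genes, and no gene had groups without overlap (0.468% of all genes higher and 0.723% lower). DESeq2 called 1 collagen gene, Col12a1, as lower among 97 genes called in all, and limma voom called none. The 6 genes with low unadjusted p-values were the FACIT genes Col12a1 and Col16a1, the fibrillar genes Col24a1 and Col11a1, the network gene Col8a2 and Col28a1, and the 1 on the higher side was Col5a3. All 3 WV libraries of high Rmrp and Rpph1 are floxed, so within WV these RNAs moved with genotype. Without them 0 of 39 collagen genes passed, and 0 of all 15215 genes tested. At an unadjusted p under 0.05 the balance turned, with 6 higher and 3 lower (1.77% and 3.32% of all genes). The higher ones were then Col5a3, Col15a1 (log2 change 0.60), Col22a1 (0.83), Col4a1 (0.58), Col4a2 (0.54) and Col5a1 (0.46). The lower ones were Col12a1, Col16a1 and Col11a1.

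Col12a1 in WV was 2.34, 0.701, 1.21, 0.891 and 0.954 RPKM in BATI4KO mice and 4.76, 4.23, 3.02, 2.13 and 2.01 RPKM in floxed mice. The 4 BATI4KO libraries other than KO_5492 lay below every floxed library, and the log2 change was -1.41 (SE 0.34, edgeR adjusted p = 0.285), with an adjusted p of 0.0091 with DESeq2 and of up to 0.799 over all alternatives. Col16a1 was 1.35, 0.567, 0.884, 1.01 and 0.991 RPKM in BATI4KO mice and 1.73, 1.30, 1.45, 1.83 and 1.35 RPKM in floxed mice, with KO_5492 again the one that overlapped (log2 change -0.69, SE 0.20, edgeR adjusted p = 0.391). Col28a1 was 0.324, 0.153, 0.214, 0.283 and 0.409 RPKM in BATI4KO mice and 0.393, 0.347, 0.616, 0.463 and 0.491 RPKM in floxed mice, with KO_5496 inside the floxed range (log2 change -0.77, SE 0.27, edgeR adjusted p = 0.443). Col5a3 was 9.45, 9.09, 11.9, 8.24 and 12.4 RPKM in BATI4KO mice and 4.05, 5.13, 5.18, 7.02 and 11.5 RPKM in floxed mice, where FX_5514 of the floxed libraries stood among the BATI4KO values (log2 change 0.62). Without the 3 libraries of high Rmrp the log2 changes were -1.88 for Col12a1 (edgeR adjusted p = 0.542), -0.66 for Col16a1, -0.44 for Col28a1 and 1.137 for Col5a3 (edgeR adjusted p = 0.519). The others had log2 changes of -0.47 for Col24a1, -1.01 for Col11a1 and -0.96 for Col8a2. Of the 37 genes, 25 had a negative estimate, against 51.5% of all genes, with a median of -0.12 over the collagen genes and -0.01 over all genes. This sign also turned without those libraries, where 23 of 39 estimates were positive and the median was 0.085. Of all genes, 52.2% then had a negative estimate, with a median of -0.013.

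Markers of connective tissue and immune cells had mostly negative estimates in these muscles, and none passed the threshold. Tendon and cartilage markers (9 of 9 found) summed to 116, 31.3, 54.4, 49.0 and 47.8 CPM in BATI4KO WV and to 90.5, 249, 145, 108 and 75.6 CPM in floxed WV, again with KO_5492 the highest of the BATI4KO libraries. Of them, Tnmd averaged 0.806 CPM in BATI4KO and 2.99 CPM in floxed WV, and Acan was at 0 in some libraries of both groups. Fibroblast markers (12 of 12 found) summed to 747 to 1458 CPM in BATI4KO WV and 1156 to 3185 CPM in floxed WV, and all 12 had a negative estimate, also without the 3 libraries of high Rmrp. Macrophage markers had 9 negative estimates of 9, and 8 of 9 in BAT as well. In WV mural cell markers had 8 of 10, brown adipocyte markers 7 of 10 and Schwann cell markers 5 of 7. Endothelial markers had 5 of 10 and contractile markers 10 of 20, where 51.5% of all genes had a negative estimate. The part of such cells in the lower estimates of Col12a1, Col16a1, Col24a1, Col11a1 and Col8a2 was not tested.

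The difference of the genotype effect between the tissues passed for 0 of 38 genes, where 0.018% of 16632 genes passed. At an unadjusted p under 0.05, 5 were higher and 0 lower (5.58% and 5.04% of all genes), where higher means a more positive effect in BAT. They were Col12a1, with a difference in log2 change of 1.02, Col16a1 with 0.71, Col20a1 with 0.43, Col24a1 with 1.22 and Col9a3 with 1.57. Col9a3 overlaps Tcfl5 on the opposite strand and was at most 0.267 RPKM in any library. Col24a1 did not pass the filter on low counts within BAT. It had 3 to 22 counts per BATI4KO and 2 to 10 per floxed BAT library, with its highest BAT value in KO_3. DESeq2 and limma voom also passed 0 of 38. The 20 contractile muscle markers all had a positive difference, 17 at an unadjusted edgeR p under 0.05, and none passed the adjusted threshold. Without the 3 WV libraries of high Rmrp, 0 of 40 collagen genes passed, and 0 of all 17276 genes tested. At an unadjusted p under 0.05, 3 were higher and 3 lower (4.77% and 3.21% of all genes).

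Within BAT, more collagen genes passed for the style of title than for genotype, as did more of all 16051 genes tested (5031 for style and 7 for genotype). Short-number libraries had 1 collagen gene higher and 5 lower than libraries with tags, of 34 tested, where 14.9% of all genes were higher and 16.4% lower. The counts were 3 and 3 with upper-quartile scaling (19.6% and 12.1% of all genes) and 1 to 3 higher and 2 to 7 lower with 1 library left out. The fewest lower genes came without the BATI4KO libraries KO_3 or KO_5492, where 2037 of 15925 and 2140 of 15903 of all genes were lower. Rmrp and Rpph1, given above, moved with the style as well, and their part in these differences was not tested. Col1a1 was 45.6, 21.7, 25.7, 26.9, 16.2 and 35.2 RPKM in the short-number libraries and 15.8, 15.2, 19.7, 12.7 and 16.3 RPKM in those with tags, overlapping in 1 short-number library (log2 change 0.89, SE 0.22, edgeR adjusted p = 0.00904). The lower genes were Col16a1 (-0.83, adjusted p = 0.00321), Col11a2 (-0.77, adjusted p = 0.0153), Col12a1 (-0.63, adjusted p = 0.0248), Col4a1 (-0.51, adjusted p = 0.0323) and Col13a1 (-0.47, adjusted p = 0.0426). Type I collagen is a trimer of both its chains, and the ratio of their RPKM differed by style in both genotypes. Col1a1 stood at 1.79 to 2.34 times Col1a2 in the 6 short-number libraries and at 1.17 to 1.38 times in the 5 with tags, without overlap, and at 0.930 to 1.83 times in WV. Since Col1a1 was counted over 4698 bases and Col1a2 over 10007, the size of the ratio depends on the gene models, while the fold between libraries does not. Whether reads spread differently along the 2 models in the 2 styles was not tested. The 3 BATI4KO libraries with short numbers had ratios of 2.11 to 2.34 and the 3 with tags 1.20 to 1.38, and floxed libraries had 1.79 to 2.32 and 1.17 to 1.20. Both genotypes have both styles, and both were fitted together. A split by style was not limited to the type I pair. Col6a1 stood at 1.82 to 1.96 times Col6a2 in the short-number libraries and at 2.34 to 2.56 times in those with tags. That split ran in the opposite direction. The ratios of Col1a1 to Col3a1 and of Col4a1 to Col1a1 did not overlap between the styles either. Those of Col4a1 to Col4a2, Col4a3 to Col4a4 and Col5a1 to Col5a2 overlapped.

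Genes that act on collagens were read from lists of modifying enzymes, processing enzymes, breakdown enzymes, receptors, fibril-binding proteins, basement membrane partners and fibrogenic signals. With respect to genotype none of them passed in either tissue, with 10 to 18 genes of each list tested in BAT and in WV. In BAT the processing enzyme Lox, which cross-links collagen, was 20.02 ± 3.8 CPM in BATI4KO mice and 33.0 ± 6.09 CPM in floxed mice (SD, n = 6 and 5), with a log2 change of -0.73 (edgeR adjusted p = 0.14). Timp3, an inhibitor of matrix proteases, was 140 ± 33.8 CPM in BATI4KO BAT and 219 ± 35 CPM in floxed BAT, with -0.64 (edgeR adjusted p = 0.146). Plod1, a lysyl hydroxylase, was 56.3 ± 4.28 CPM and 69.1 ± 9.51 CPM in the same order, with -0.30 (edgeR adjusted p = 0.201). Pdgfa, a fibroblast growth signal, had a log2 change of 0.59 in BAT (edgeR adjusted p = 0.197), the laminin linker Nid1 -0.31 (0.208), the integrin chain Itgb1 -0.29 (0.18) and Dcn -0.40 (0.336). In WV the lowest p-values of the lists stood at log2 changes of -0.82 for Lox (edgeR adjusted p = 0.54), -0.87 for the protease Ctsk (0.431), -0.46 for the collagen receptor Ddr2 (0.582), -0.39 for Crtap (0.534), -0.35 for Nid1 (0.549) and 0.46 for Pdgfb (0.401). There all 13 fibril-binding genes had a negative estimate, with a median log2 change of -0.74 and 7 of 13 at an unadjusted p under 0.05, where 51.5% of all genes had a negative estimate, the median was -0.01 and 5.68% were lower at that p. Without the 3 WV libraries of high Rmrp, all 13 were again negative, with a median of -0.998 and 6 of 13. Dcn, a proteoglycan that binds type I fibrils, was 231 ± 73.9 CPM in BATI4KO WV and 454 ± 233 CPM in floxed WV (SD, n = 5 each), with a log2 change of -0.99 (edgeR adjusted p = 0.431). Dcn and Lum are also on the fibroblast list and Fmod on the tendon list.

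Between the tissues these partner genes moved both ways, and each of those named below passed the threshold. The counts stand against 34.1% of all genes higher and 31.7% lower in floxed mice. In floxed mice fibril-binding genes were mostly lower in BAT, with 1 of 13 higher and 9 lower, led by Fmod (log2 change -6.97), fibronectin Fn1 (-2.11) and Tnxb (-1.16). Of 10 basement membrane partners, 3 were higher in BAT and 5 lower. The laminin chain Lamb1 averaged 295 ± 72.1 CPM in floxed BAT and 73 ± 15.3 CPM in floxed WV (log2 change 2.19) and the muscle laminin chain Lama2 was lower (-1.87). Of 18 genes that fold and modify the chains, 7 were higher and 7 lower, close to that share, among them Crtap (1.68), which acts on proline of fibrillar chains, P4hb (-1.56) and P4ha2 (-1.73), subunits of prolyl hydroxylase. Of 12 processing genes, 3 were higher and 7 lower, including the propeptide proteases Adamts2 (-1.01) and Adamts3 (-1.42) and the cross-linker Loxl2 (-1.09). Of 14 breakdown genes, 4 were higher and 8 lower, with Mmp3 at 3.55 and Timp2 at -2.06. Of 10 receptors, 2 were higher and 5 lower, with the laminin and collagen receptor chain Itga1 at 1.88 and the fibrillar collagen receptor chain Itga11 at -2.60. Of 13 fibrogenic signal genes, 5 were higher and 7 lower, with Tgfb3 at -3.02 and Pdgfa at -2.86.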

How the data were processed

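Whole-tissue RNA was depleted of ribosomal RNA, copied with random hexamers and made into Nextera XT libraries, per the labels' protocols. The authors deposited raw counts per gene model, 1 table per tissue, whose values are whole numbers. The submitters' processing notes name edgeR, featureCounts 1.4.6, SAMtools 0.1.19, Picard 2.2.4, TopHat2 2.0.14, bcl2fastq 2.17.1.14 and build mm9. Not given in the sources used here are the strand setting and the treatment of multiply mapped reads. All rows carry a gene symbol.

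From the counts, edgeR 4.0.16 (R 4.3.3) fitted quasi-likelihood models after filterByExpr and TMM scaling, with Benjamini-Hochberg adjustment over all genes tested and a threshold of 0.05. BAT fits and the joint fit held title style as a term. The joint fit of 21 libraries had 4 groups of tissue and genotype. limma 3.58.1 (voom), DESeq2 1.42.0, other scalings and filters, each style alone, a muscle marker score as a term and fits without each library were alternatives. The scripts were tested on simulated data. RPKM and CPM use the joint TMM scaling. Replicate libraries differed beyond sampling noise (chi-square per gene of 30.4 or more). Members and lists were chosen with earlier results of these data known. Values per library are given for the 6 genes of highest mean RPKM per tissue and the 3 of lowest p per genotype comparison. For the tissues in floxed mice they are given for the 5 of largest change each way with a mean of at least 1 CPM in the higher tissue. In BATI4KO BAT most of these genes are given by their lowest, median and highest value. Of partner lists at most 3 genes are named. Other genes are named by class after their values were seen. Sequences come from RefSeq, GRCm38.p6, and coordinates on mm9 are not used here.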

Additional observations from a re-analysis of the deposited data

Results flagged for a closer look

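In 7 of 132 tests of a group of 5 or 6 libraries, 1 library stood further from the others than Dixon's 95% critical value, and chance alone gives about 1 in 20. Col1a1 was 45.6 RPKM in the BATI4KO BAT library KO_1, where the next was 25.7. Col16a1 was 0.5262 RPKM in the floxed BAT library FX_5503, where the next was 0.338. Col24a1 was 0.101 RPKM in the BATI4KO BAT library KO_3, where the next was 0.0392, and Col9a1 was 0.00691 RPKM (1 count) in the BATI4KO BAT library KO_5494, with the others at 0. Transmembrane collagens took 0.362% of the summed RPKM in the BATI4KO BAT library KO_1, where the next lowest was 0.503%, and 0.175% in the BATI4KO WV library KO_5495, where the next lowest was 0.237%. The ratio of Col1a1 to Col3a1 was 0.666 in the BATI4KO WV library KO_5492, where the next was 0.456.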

How the results depend on the processing

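With library totals, BAT against WV counted 11 lower collagen genes in floxed mice and 15 higher and 8 lower in BATI4KO mice, Col6a1 turned to 0.074 in floxed mice (adjusted p = 0.77) and 0.58 in BATI4KO mice (adjusted p = 0.0152), and Col3a1 to 0.28 in BATI4KO mice (adjusted p = 0.349). The summed collagen CPM was then 2846 in BATI4KO BAT, 2536 in floxed BAT, 1832 in BATI4KO WV and 2021 in floxed WV, against 2025, 1984, 2636 and 2661 with TMM, and the order of the tissues changed. With DESeq2, 1 gene was higher by genotype in BAT and 1 lower in WV. For title style in BAT the counts were 3 higher and 3 lower with upper-quartile scaling, 3 and 2 with library totals, 3 higher with a mean of at least 1 CPM, 2 higher with DESeq2, and 1 to 3 higher and 2 to 7 lower with 1 library left out. Fits without 1 library gave 5 to 6 higher and 20 to 25 lower in floxed mice, and 8 to 9 and 17 to 21 in BATI4KO mice. Col3a1 in BATI4KO mice missed the threshold without BAT libraries KO_5492 or KO_5494, without WV libraries KO_5494 or KO_5496 and with upper-quartile scaling (-0.49, adjusted p = 0.0998). Col6a1 in BATI4KO mice passed as lower in 12 of 32 settings and as higher in 1, library totals, and in floxed mice it missed the threshold with tags only (-0.43, adjusted p = 0.068). With the replicate block, genotype gave 0 calls in BAT and BAT against WV gave 6 higher and 21 lower in floxed mice and 7 and 23 in BATI4KO mice. With that block Col6a1 passed in BATI4KO mice (-0.54, adjusted p = 0.0169). Libraries of one number correlated by -0.106 to 0.131 in BAT. Correlations of so few libraries cannot decide whether the numbers pair them, and the labels do not say. The tags of FX_5497, FX_5503, KO_5492 and KO_5494 occur in both tissues with the same genotype, the labels do not say whether they mark 1 animal, and those pairs correlated by -0.084 to 0.113. Summing gene models was not run, since each gene has 1. Depth limits Col22a1, Col9a1, Col2a1 and Col6a4 in BAT to a few counts. Leaving out the 3 WV libraries of high Rmrp was chosen after seeing the data.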
